A study of Bos taurus with 8 samples.

Results

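The miR-17, miR-18 and miR-19 seed families were followed in blood plasma and blood cells of 4 cows. Members were taken by name from the table of raw reads, and all 10 names were found among its 704. The miR-17 family has 6 of them, namely bta-miR-17-5p, bta-miR-20a, bta-miR-20b, bta-miR-93, bta-miR-106a and bta-miR-106b. The miR-18 family has 2, bta-miR-18a and bta-miR-18b, and the miR-19 family has 2, bta-miR-19a and bta-miR-19b. The names were given by family.

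A miRNA seed is the short stretch near the 5′ end that pairs with target mRNAs, so miRNAs with the same seed can repress many of the same targets. The 3 families are made from a few transcripts that each hold several hairpins in a row. The best known is miR-17-92, which MYC activates in human and mouse cells and which promotes growth and survival of blood progenitors and lymphocytes. Its paralogues are miR-106a-363 on the X chromosome and miR-106b-25 within the gene for the replication factor MCM7.

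The 4 plasma libraries (FP) came from cell-free plasma that had been spun and then filtered, and the 4 blood cell libraries (BC) from a pellet of red blood cells and buffy coat. Each cow, numbered 44 to 47, gave 1 library of each kind, so the fractions are paired by animal. The animals were healthy, untreated, cycling, non-pregnant Holstein-Friesian cross females aged 20 to 25 months. The comparison asks which blood miRNAs are carried by blood cells and which reach plasma from elsewhere. In the blood cell libraries, which are bulk samples, fewer cells of a type and less RNA per cell cannot be told apart.

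Plasma libraries held 1453384 to 4296460 miRNA reads and blood cell libraries 11169204 to 14471979. Levels are given as RPMM, the authors' normalised reads, in which the bovine miRNA reads of each library are brought to the same total, and 3 reads equal 0.696 to 2.07 RPMM for plasma, against 0.207 to 0.268 RPMM for blood cells. The pellet bore red blood cell miRNAs, since miR-451, miR-486 and miR-144 together took 8.92% to 18% of the plasma RPMM, against 48.8% to 56.1% of the blood cell RPMM. All 3 were called lower in plasma by the edgeR test used for the members. The 7 leukocyte miRNAs examined took 3.34% to 7.08% of plasma RPMM, against 2.59% to 3.19% of blood cell RPMM. With TMM, 4 were called lower in plasma and 0 higher, but with library totals 0 were lower and 6 higher. Of all 209 miRNAs tested, 83 were called lower and 95 higher with TMM, and 52 and 140 with library totals. The 4 epithelial miRNAs and both arms of the endothelial and platelet miR-126 were called higher in plasma and were near absent from blood cells, where they summed to 5.34 to 6.89 RPMM and 15.5 to 26.7 RPMM. The part these cell types had in the results on the 3 families was not tested.

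The members lie in 3 short stretches of the genome in the authors' table, which uses build bosTau4. On chromosome 12, plus strand, miR-17-5p (64665115-64665138), miR-18a (64665250-64665271), miR-19a (64665432-64665454) and miR-20a (64665560-64665582) follow each other ahead of miR-92a, and with both other listed arms these 7 names span 757 bases. On chromosome 25, plus strand, miR-106b (38455583-38455603), miR-93 (38455785-38455806) and miR-25 span 465 bases. In RefSeq's annotation of the newer assembly ARS-UCD2.0 all 3 of these hairpins lie inside the MCM7 gene. On the unplaced scaffold Un.004.53, minus strand, miR-106a (181705-181726), miR-18b (181545-181566), miR-20b (181306-181327), miR-19b (181144-181166) and miR-363 span 891 bases, and RefSeq places their hairpins on chromosome X. RefSeq lists 2 hairpins for miR-19b, 1 on chromosome 12 and 1 on chromosome X, as it does for miR-92a. Reads under these 2 names can therefore come from either cluster, whatever the single location in the table says. Reads were matched with 1 mismatch allowed, so reads of close relatives can fall under either name. Such pairs are miR-17-5p and miR-106a, miR-20a and miR-20b, miR-18a and miR-18b, and miR-19a and miR-19b.

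As a whole the 10 members held a smaller share of plasma than of blood cell miRNA. They took 0.685% ± 0.123 of plasma RPMM, against 1.79% ± 0.240 of blood cell RPMM (SD, n = 4 each). With the abundant miR-486 and miR-451 left out of the total, these shares were 0.797% ± 0.13 in plasma, against 3.66% ± 0.33 in blood cells. The miR-17 family was the largest, with 4951 ± 825 RPMM in plasma, against 14409 ± 1979 RPMM in blood cells. The miR-19 family had 1811 ± 407 RPMM in plasma, against 3214 ± 424 RPMM in blood cells, and the miR-18 family 84.8 ± 28.1 and 300.03 ± 96.8 RPMM (plasma and blood cells, SD, n = 4 each). In none of the 3 families did the range of the plasma libraries overlap that of the blood cell libraries. Plasma lay wholly below blood cells in this way for 23.0% of the 209 single miRNAs tested below.

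**Figure D1:**
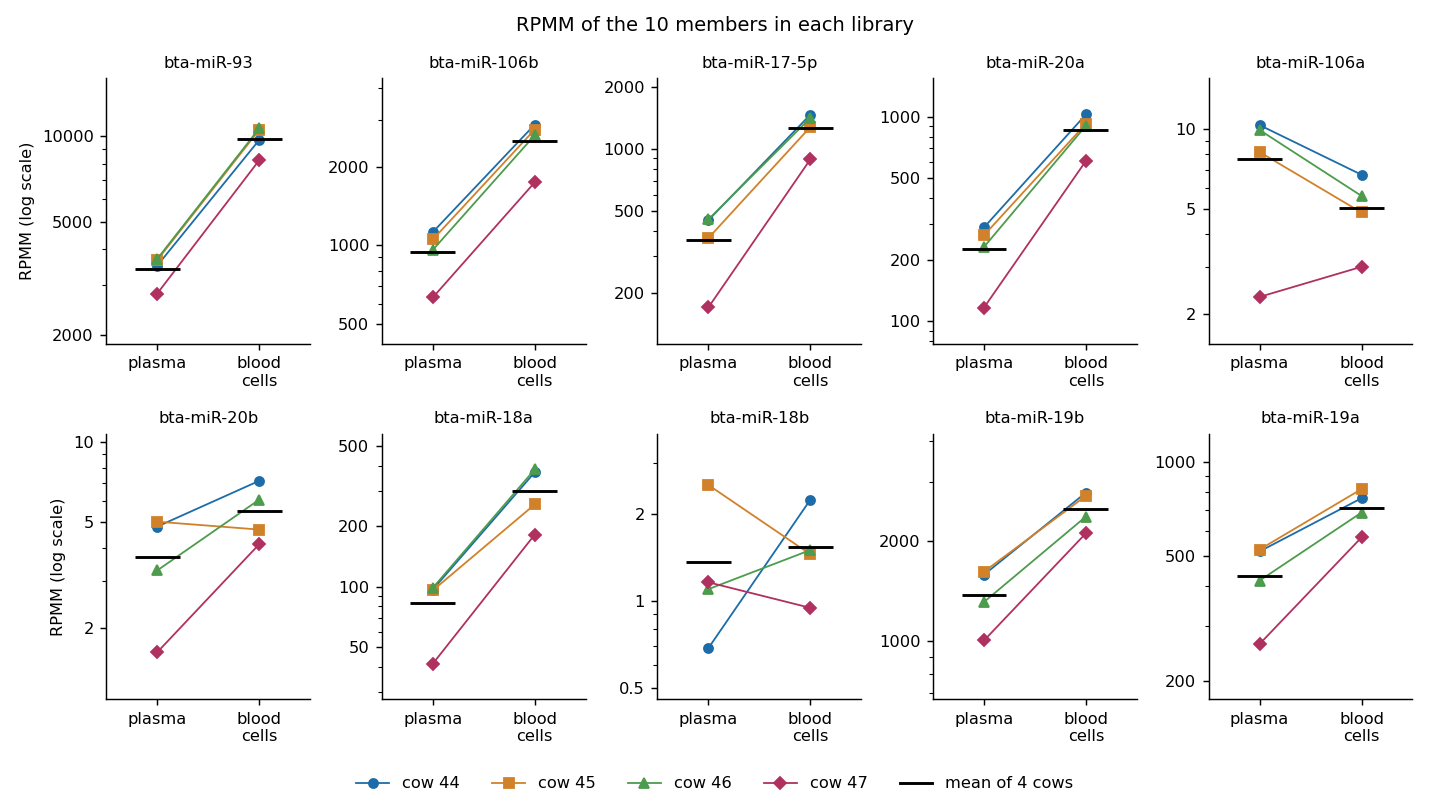
RPMM of each member (log axis, own scale in each panel) in plasma and in blood cells, with 1 line per cow and a black bar at the mean of 4 cows. In the 7 abundant members all plasma points lie below all blood cell points, while in miR-106a, miR-20b and miR-18b the fractions overlap, and cow 47 is the lowest or nearly so in most panels.

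Of the 10 members, 7 were abundant enough to be tested, with at least 25 RPMM in at least 3 libraries, and these 7 met that mark in both fractions. All 7 were called lower in plasma (quasi-likelihood test of edgeR, TMM scaling, cows as blocks, Benjamini-Hochberg adjusted p under 0.05). Among all 209 miRNAs tested, 39.7% were called lower in plasma. When the counts were scaled by library totals alone, the 7 members were again called lower, against 24.9% of the 209. The plasma RPMM of all 4 cows lay below the blood cell RPMM of all 4 cows in the 7 members, and this held for 23.0% of the tested miRNAs. Leaving out any cow kept the count at 7, while 76 to 82 of the 209 miRNAs were called lower.

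The scaling sets the size of these differences. Over all 209 miRNAs the median log2 fold change (plasma over blood cells) came to 0.08 with TMM and 1.76 with library totals, so the 2 sets of values are shifted against each other by a nearly constant amount. Relative to that median, the 7 members were at -3.75 to -2.52 under either scaling. By mean RPMM, plasma held 0.260 to 0.605 of the blood cell level.

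**Figure D2:**
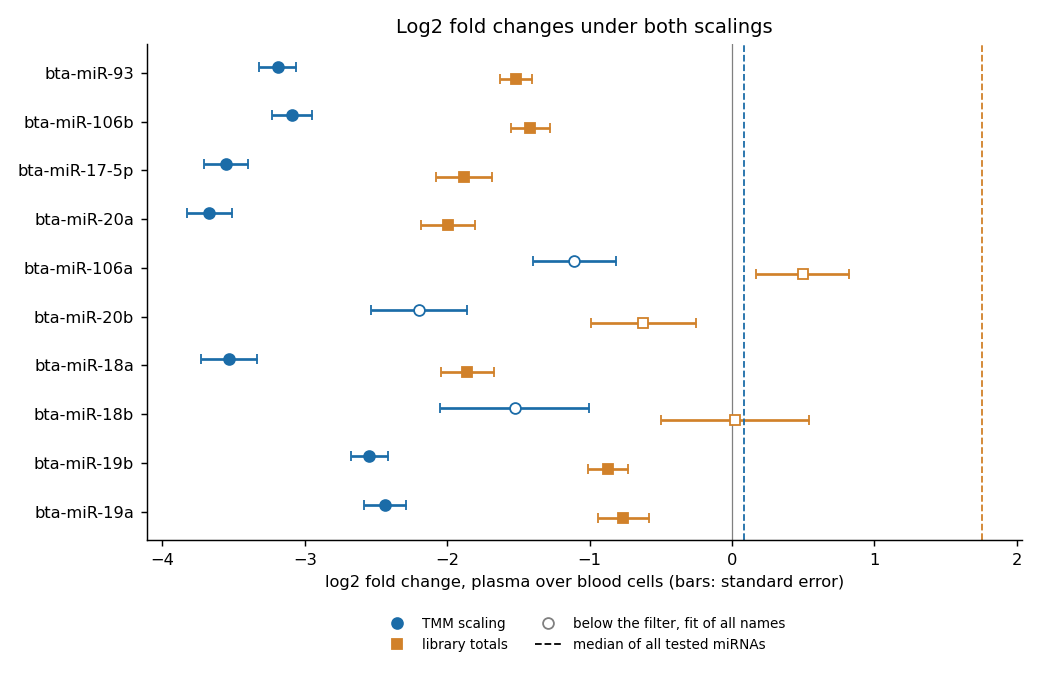
Log2 fold change of each member, plasma over blood cells, with its standard error, under TMM scaling (circles) and library totals (squares). Dashed lines mark the median of the 209 tested miRNAs under each scaling, and open symbols are the 3 members below the filter, taken from a fit of all 704 names. The 7 tested members lie below 0 under both scalings, and miR-106a and miR-18b cross 0 between them.

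miR-93, which is processed from the MCM7 transcript, was the most abundant member in both fractions and ranked 39th in plasma and 15th in blood cells among all names. It had 3500, 3658, 3695 and 2790 RPMM in the plasma of cows 44, 45, 46 and 47, against 9684, 10510, 10635 and 8214 RPMM in their blood cells. The groups were far apart, and within a cow the plasma level was 0.340 to 0.361 of the blood cell level. The log2 fold change was -3.19 (standard error, SE, 0.13, adjusted p = 4.02e-06) with TMM and -1.52 with library totals.

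miR-106b, its neighbour in the same transcript, represses the cell cycle inhibitor CDKN1A in human cells. Its levels were 1125, 1054, 962 and 633 RPMM in plasma and 2894, 2770, 2635 and 1742 RPMM in blood cells, in the same order of cows. Both fractions ran from cow 44 at the top to cow 47 at the bottom, and the within-cow ratio stayed between 0.363 and 0.389. The log2 fold change was -3.09 (SE 0.14, adjusted p = 4.58e-06) with TMM and -1.42 with library totals.

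miR-17-5p and miR-20a, the miR-17 seeds of the chromosome 12 cluster, act on E2F transcription factors and CDKN1A in human cells. miR-17-5p had 450, 369, 454 and 170 RPMM in the plasma of cows 44 to 47, against 1467, 1278, 1414 and 889 RPMM in their blood cells. miR-20a had 288, 263, 231 and 117 RPMM in plasma, against 1026, 924, 904 and 608 RPMM in blood cells. Cow 47 was lowest in all 4 of these groups of libraries, and in that cow plasma also held the smallest fraction of the blood cell level, 0.191 for miR-17-5p and 0.192 for miR-20a. The log2 fold changes were -3.55 and -3.67 with TMM (SE 0.16 for both, adjusted p = 4.21e-06 and 4.10e-06) and -1.88 and -2.0 with library totals. The change of miR-20a was the lowest of the 7 under both scalings.

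miR-18a differs from its neighbours in the seed and is processed with the help of the RNA-binding protein HNRNPA1 in human cells. It had 97.1, 96.1, 98.9 and 41.6 RPMM in plasma, against 371, 257, 384 and 182 RPMM in blood cells of cows 44 to 47. Cows 44, 45 and 46 were within a few RPMM of each other in plasma, whereas their blood cells were not. The log2 fold change was -3.53 (SE 0.20, adjusted p = 8.64e-06) with TMM and -1.86 with library totals.

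miR-19a and miR-19b carry much of the oncogenic activity of miR-17-92 in mouse lymphoma. miR-19b had 1585, 1618, 1313 and 1006 RPMM in plasma, against 2796, 2734, 2369 and 2111 RPMM in blood cells, and miR-19a had 518, 525, 418 and 262 RPMM in plasma, against 766, 819, 689 and 574 RPMM in blood cells. The fractions did not overlap, but they lay closer than in the miR-17 family, with plasma at 0.476 to 0.592 of the blood cell level for miR-19b and 0.457 to 0.676 for miR-19a. The log2 fold changes were -2.55 and -2.44 with TMM (miR-19b and miR-19a, SE 0.13 and 0.15, adjusted p = 6.67e-06 and 1.17e-05) and -0.87 and -0.76 with library totals.

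Members with close sequences were also summed, so that the result does not hang on which name a read was given. With the 10 names replaced by 3 family sums, edgeR's test called all 3 lower in plasma, where 39.5% of the 205 rows were called lower. The log2 fold changes were -3.29 (SE 0.16, adjusted p = 6.40e-06) for the miR-17 family, -3.58 (0.22, 1.26e-05) for the miR-18 family and -2.59 (0.16, 1.09e-05) for the miR-19 family. The miR-17 family sum was the most even of the 3 between animals. Plasma held 0.324 to 0.356 of its blood cell RPMM in each cow, against 0.233 to 0.382 for the miR-18 family and 0.472 to 0.603 for the miR-19 family. That sum is mostly miR-93 and miR-106b, and its other tested members were less even. Within a cow, miR-17-5p ran from 0.191 to 0.321 and miR-20a from 0.192 to 0.285.

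The order of the members by mean level differed between the fractions in the place of miR-19a. In addition, miR-19b and miR-106b, and miR-106a and miR-20b, changed places with ranges that overlapped in both fractions. In plasma, miR-19a was above miR-17-5p in 3 of 4 cows, and miR-19b was above miR-106b and miR-106a above miR-20b in 4 of 4. In blood cells, miR-20b was above miR-106a in 3 of 4 cows. The plasma order ran from miR-93 through miR-19b, miR-106b, miR-19a, miR-17-5p and miR-20a to miR-18a, followed by miR-106a, miR-20b and miR-18b at under 8 RPMM on average. In blood cells miR-106b and miR-19b had close means, at 2510 ± 523 and 2502 ± 322 RPMM (SD, n = 4), with miR-106b higher in 3 of 4 cows, and miR-19a stood below miR-17-5p and miR-20a. Neighbours whose ranges overlapped in plasma were miR-19b and miR-106b, miR-19a and miR-17-5p, miR-17-5p and miR-20a, miR-106a and miR-20b, and miR-20b and miR-18b. In blood cells the overlapping neighbours were miR-106b and miR-19b, miR-17-5p and miR-20a, miR-20a and miR-19a, and miR-20b and miR-106a.

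**Figure D3:**
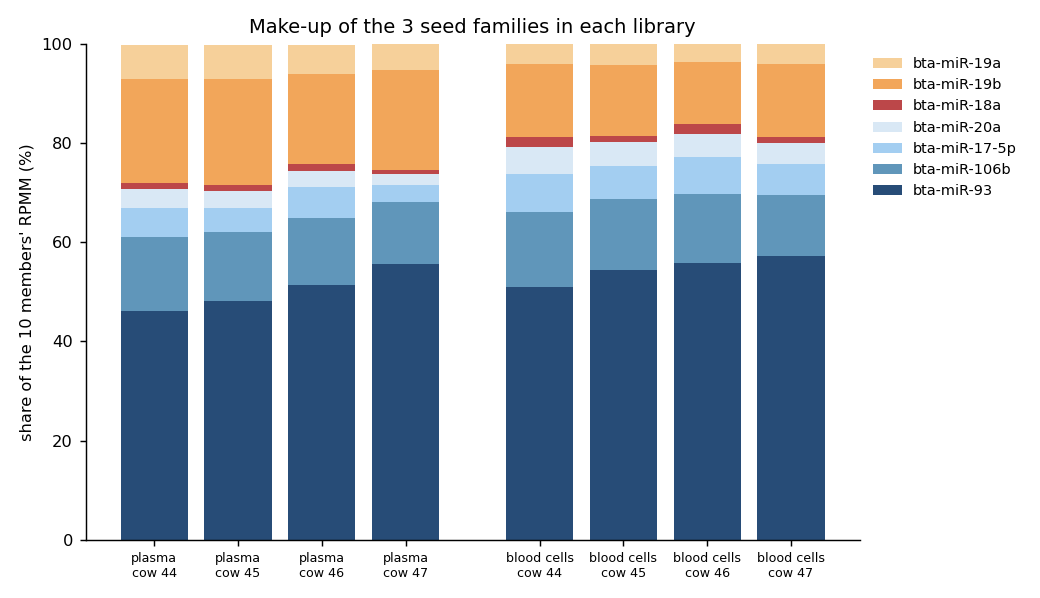
Share of the 10 members' RPMM (percent) held by each of the 7 abundant members in each library, the plasma libraries on the left and the blood cell libraries on the right. miR-106a, miR-20b and miR-18b are too small to draw. The miR-19 family (orange) takes 24.1% to 28.2% in plasma, against 16.1% to 18.7% in blood cells.

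Ratios between 2 miRNAs of the same library do not depend on how libraries are scaled, and 14 of them were compared between the fractions. With 4 pairs of libraries the smallest p of an exact two-sided permutation test is 0.13, so none can pass 0.05, and the smallest value after Benjamini-Hochberg adjustment over the 14 was 0.175. Of the 14 ratios, 9 were higher in plasma in 4 of 4 cows, 1 was lower in 4 of 4 cows, and 4 went different ways in different cows.

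The miR-19 family stood higher relative to the miR-17 family in plasma. Most of the miR-17 family was miR-93 and miR-106b from chromosome 25, a cluster with no miR-19, which made up 69.4% and 18.9% of the family's RPMM in plasma, against 68.0% and 17.3% in blood cells. Reads of the miR-19 family came to 36.4% ± 3.75 of those of the miR-17 family in plasma, against 22.4% ± 1.88 in blood cells (SD, n = 4 each), a ratio 1.62 times as high in plasma, or 1.46 to 1.74 times within a cow (exact p = 0.13, adjusted p = 0.175). Between 2 names of chromosome 12, miR-19a reads came to 1.26 ± 0.280 times those of miR-17-5p in plasma, against 0.574 ± 0.0812 times in blood cells. That was 2.17 times as high in plasma (1.89 to 2.39 within a cow). The ranges of the fractions did not overlap in either ratio, and both changes were larger than the spread between cows. miR-92a, the last hairpin of that cluster, was likewise 1.93 times as high relative to miR-17-5p in plasma (1.39 to 2.49 within a cow), with 71.7 ± 26.3 against 36.2 ± 8.06 reads per read of miR-17-5p. Reads of miR-92a can also come from its hairpin on chromosome X, so that ratio is not one of chromosome 12 alone. Reads of miR-19b, which has a hairpin on chromosome X, can fall under the name miR-19a, so the same limit holds for the miR-19a ratio.

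The ratio of miR-93 to miR-106b was 3.71 ± 0.554 in plasma, against 3.97 ± 0.572 in blood cells (SD, n = 4 each). It was 0.933 times as high in plasma, and the 4 cows gave 0.915 to 0.952, although the ratio itself ran from 3.11 to 4.72 over the libraries. The ratios of miR-20a to miR-17-5p (0.922, 0.796 to 1.01 within a cow), of miR-19b to miR-19a (0.926, 0.838 to 1.04) and of miR-18a to miR-17-5p (1.02, 0.805 to 1.30) went both ways among the cows. The miR-18 family relative to the miR-17 family was at 0.817 (0.722 to 1.11 within a cow, exact p = 0.25). Such small departures are described only, since 4 cows cannot show that a ratio is equal.

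**Figure D4:**
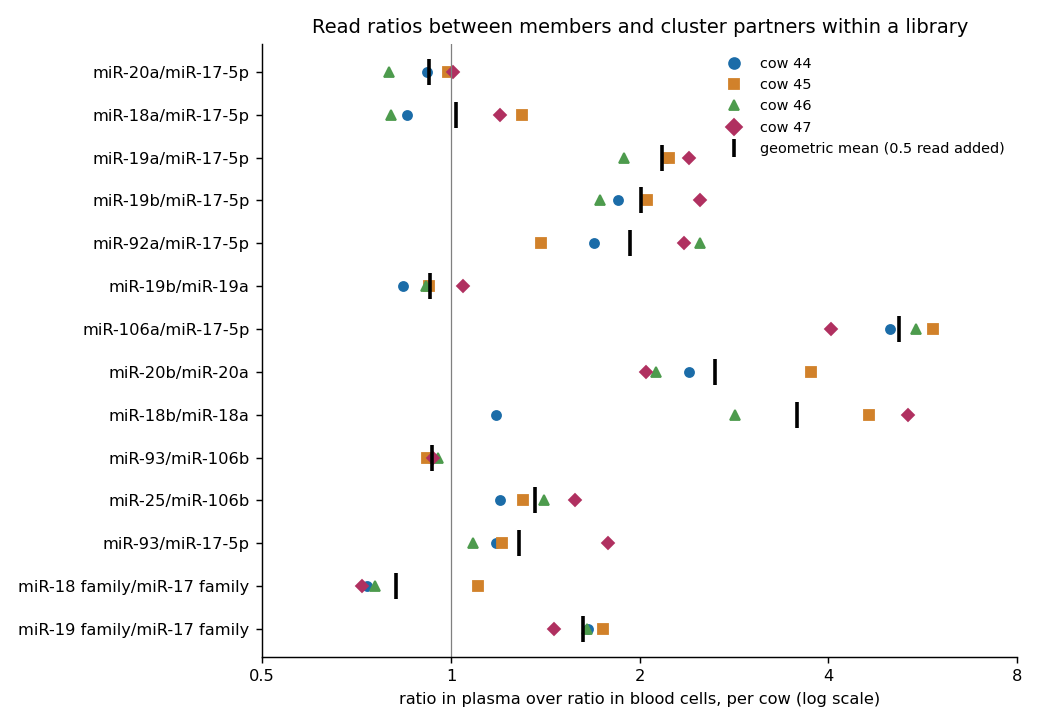
Read ratio in plasma divided by the same ratio in blood cells, for 14 pairs of miRNAs or families (log axis). There is 1 symbol per cow, from the counts with no read added, and a black tick at the geometric mean with 0.5 read added to each count. Ratios of miR-19a, miR-19b and miR-92a to miR-17-5p and those of the 3 scarce members to their close relatives lie right of 1 in every cow, and the 4 cows coincide for miR-93 over miR-106b.

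The 3 members whose only RefSeq hairpin lies in the chromosome X cluster were scarce in both fractions. miR-106a had 15, 26, 18 and 10 reads in plasma, against 75, 70, 67 and 35 reads in blood cells of cows 44 to 47. miR-20b had 7, 16, 6 and 7 reads in plasma and 80, 68, 73 and 48 in blood cells, and miR-18b had 1, 8, 2 and 5 reads in plasma and 25, 21, 18 and 11 in blood cells. In RPMM the fractions overlapped for all 3 names, at 7.68 ± 3.69 in plasma, against 5.03 ± 1.55 in blood cells for miR-106a, 3.69 ± 1.58 and 5.52 ± 1.37 for miR-20b, and 1.37 ± 0.794 and 1.53 ± 0.531 for miR-18b (plasma, then blood cells, SD, n = 4 each). The pooled RPMM ratio, plasma over blood cells, was 1.28 for miR-106a (95% exact binomial interval 0.965 to 1.68), 0.613 for miR-20b (0.420 to 0.870) and 0.977 for miR-18b (0.531 to 1.69). These intervals cover counting error only.

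These 3 members did not pass the filter, and the direction of miR-106a and miR-18b depends on the scaling. In edgeR's test of all 704 names with TMM, 21.7% of names were called lower in plasma, and so were miR-106a, miR-20b and miR-18b, at -1.11, -2.20 and -1.53 (adjusted p = 0.00554, 5.07e-05 and 0.0261). With library totals, an alternative added after the data were seen, they were at 0.50, -0.62 and 0.021, and none of the 3 was called (adjusted p = 0.233, 0.183 and 0.971). The median over the 704 names was 0.52 with TMM and 2.02 with library totals. Relative to that median, the 3 members were at -1.63, -2.72 and -2.05 with TMM and at -1.52, -2.64 and -1.99 with library totals.

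Relative to their close relatives on chromosome 12, the 3 scarce members took more reads in plasma. miR-106a reads were 2.29%, 2.22%, 2.18% and 1.37% of the miR-17-5p reads in the plasma of cows 44 to 47, against 0.457%, 0.378%, 0.395% and 0.339% in their blood cells. This ratio was 5.17 times as high in plasma with 0.5 read added, or 4.17 to 5.93 times within a cow. miR-20b over miR-20a was 2.64 times as high (2.17 to 3.84) and miR-18b over miR-18a 3.56 times (1.73 to 5.63), the lower end coming from cow 44, with 1 read of miR-18b in plasma. Without the added 0.5 read, miR-18b was 0.709% of miR-18a in the plasma of cow 44, against 0.602% in its blood cells. All 3 ratios were higher in 4 of 4 cows without overlap of the fractions (exact p = 0.13 each, adjusted p = 0.175). Summed, the 3 names held 1.86%, 2.11%, 1.79% and 1.53% of the reads of the 6 names in plasma, against 0.559%, 0.444%, 0.485% and 0.480% in blood cells, and the 95% Wilson intervals were 1.01% to 2.78% over the plasma libraries and 0.381% to 0.647% over the blood cell libraries. These names can share reads with their relatives, and how far they do was not tested.

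The other miRNAs of the 3 clusters moved in part with the members. Of the 5 examined, 4 were tested and 3 were called lower in plasma with TMM, with miR-363 not called. Among all 209 miRNAs tested, 39.7% were called lower. miR-92a, which has its own seed and is abundant in red blood cells, had 23589 ± 5939 RPMM in plasma, against 44264 ± 4590 RPMM in blood cells (SD, n = 4 each), and its log2 fold change was -2.61 (SE 0.18, adjusted p = 2.01e-05). miR-25, which shares the miR-92a seed, had 15487 ± 1649 and 30232 ± 1455 RPMM (plasma and blood cells, SD, n = 4 each) and its log2 fold change was -2.64 (0.16, adjusted p = 1.17e-05). miR-17-3p, the other arm of the miR-17 hairpin, was at -3.20 (0.24, adjusted p = 2.90e-05). miR-363, the same seed again but from chromosome X, had 47.1 to 84.2 RPMM in the plasma of cows 44, 45 and 47 and 36.8 in that of cow 46, against 18.9 to 28.9 RPMM in blood cells, so its plasma range lay above. It was not called with TMM, at -0.37 (0.28, adjusted p = 0.240), and was called higher in plasma with library totals, at 1.30. With library totals, 140 of the 209 tested miRNAs were called higher and the median was 1.76, so miR-363 lay below the median. The human homologue miR-18a-3p, the other arm of the miR-18a hairpin, had 0 reads in plasma and 1 to 6 reads in blood cells, and fell under the filter. It had 15 reads over the blood cell libraries. The 95% exact binomial interval of its pooled RPMM ratio, plasma over blood cells, was 0 to 1.28, which leaves equal levels possible. In edgeR's test of all 704 names, TMM put miR-18a-3p at -4.70 (SE 1.72, adjusted p = 0.0422), a call of lower in plasma. Scaling by library totals gave -4.35 (SE 2.44, adjusted p = 0.167), above the threshold, so the call depends on the scaling.

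Within the MCM7 cluster, miR-25 stood at 17.6 ± 6.66 reads per read of miR-106b in plasma, against 12.5 ± 3.21 in blood cells (SD, n = 4 each). The ratio was 1.36 times as high in plasma, at 1.20 to 1.58 within a cow, whereas the ranges of the fractions overlapped. miR-93 to miR-17-5p, a comparison of the same seed across clusters, was 1.29 times as high (1.08 to 1.78 within a cow), and cow 47 gave the highest value of both ratios.

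Cow 47, singled out after its values were seen, had low levels of the families in both fractions. Its plasma had the lowest RPMM of the 4 cows for 9 of 10 members, with miR-18b, lowest in cow 44, the exception, and its blood cells for 10 of 10. Among all 209 tested miRNAs cow 47 was lowest in plasma for 64.6% and in blood cells for 48.3%, so low levels in this cow were common in general. The miR-17 family had 0.371% of the RPMM in the plasma of cow 47, against 0.536% to 0.538% in the other cows, and 1.15% of the RPMM in its blood cells, against 1.51% to 1.56%. The sum of the 3 red blood cell miRNAs was highest in this cow, at 18% of plasma and 56.1% of blood cell RPMM. By name, miR-486 was highest in cow 47 in both fractions and miR-144 in blood cells. In plasma, miR-451 was highest in cow 46 and miR-144 in cow 45. In blood cells, miR-451 was lowest in cow 47, at 139856 RPMM, and highest in cow 46, at 230330 RPMM. The plasma of cow 47 also had the least of the leukocyte miRNAs, with a sum of 33392 RPMM against 55913 to 70757 RPMM in the other cows. It had the most of the liver miRNA miR-122, with 814 RPMM against 36.8 to 75.0 RPMM. The part of these miRNAs in the low family levels was not tested. With miR-486 and miR-451 left out of the total, the miR-17 family of cow 47 was still the lowest, at 0.453% of plasma RPMM against 0.590% to 0.638%, and at 2.54% of blood cell RPMM against 2.97% to 3.16%.

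The shortfall of cow 47 was uneven over the members in plasma. Relative to the mean of the other cows, its plasma held 0.771 of the miR-93 level and 0.605 of the miR-106b level, and 0.400, 0.448 and 0.427 of the miR-17-5p, miR-20a and miR-18a levels. In its blood cells the same members stood at 0.799, 0.630, 0.641, 0.639 and 0.540. The members of chromosome 25 thus deviated by a like factor in both fractions, and those of chromosome 12 deviated further in plasma. So did miR-19b, at 0.668 in plasma against 0.802 in blood cells, and the scarce miR-106a (0.245 against 0.528) and miR-20b (0.371 against 0.692). The scarce miR-18b went the other way, at 0.810 against 0.548. No test of 1 animal against 3 was made.

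**Figure D5:**
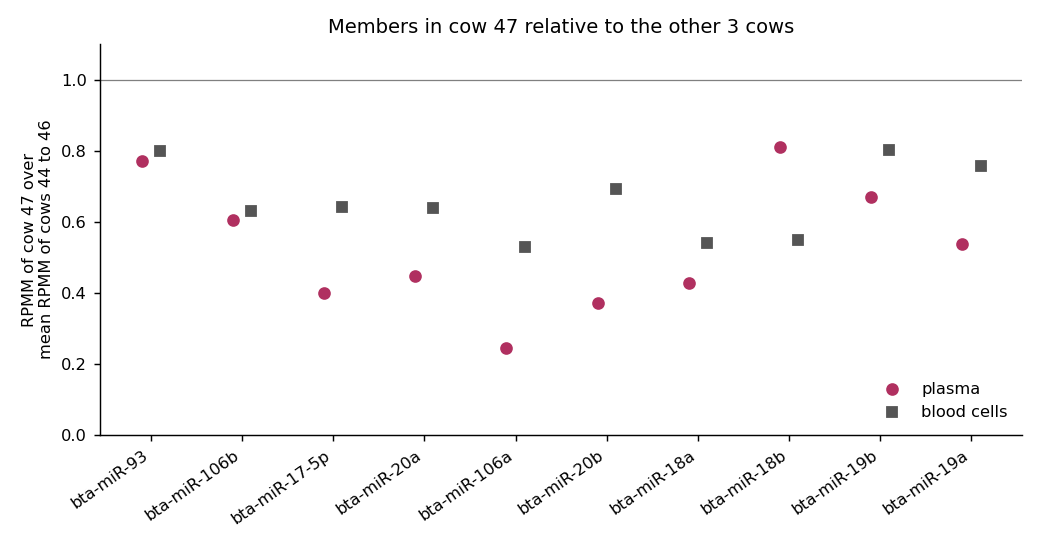
RPMM of each member in cow 47 divided by the mean of cows 44 to 46, in plasma (circles) and blood cells (squares). All 20 points lie below 1, and plasma is at or below blood cells for every member but miR-18b.

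The tested miRNAs whose profile over the 8 libraries came nearest to each family sum were found by Euclidean distance of log2(RPMM + 1), centred on each miRNA's mean. For the miR-17 family these were let-7d, miR-151-5p and miR-199b, at distances of 0.266, 0.376 and 0.454, where the median of the 202 other tested miRNAs was 5.28. For the miR-18 family they were miR-199b, miR-6123 and miR-2285g, at 0.725, 0.783 and 0.977. For the miR-19 family they were miR-26b, miR-374a and miR-2336, at 0.284, 0.352 and 0.456. let-7d had 418 ± 52.0 RPMM in plasma, against 1205 ± 140 RPMM in blood cells, and miR-26b had 2408 ± 518 and 3912 ± 516 RPMM (plasma and blood cells, SD, n = 4 each). The distance is a description of 8 libraries that share 2 fractions and 4 cows.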

How the data were processed

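Small RNA was sequenced as 36-base reads (TruSeq kit, Illumina HiSeq) from 4 plasma and 4 blood cell samples of the same cows, 5 μL of RNA extract per library. The authors dropped reads without adaptor, with undetermined bases or under 15 nucleotides, and assigned the others with sRNAbench 1.0 and Bowtie 0.12.9 (bosTau4, miRBase 21, 1 mismatch allowed) to bovine and then human names. The deposited values are raw read counts, and a deposited normalised score, RPMM, with separate denominators for bovine and human names. RPMM were recomputed from counts with the bovine denominator.

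A filter of 25 RPMM in 3 or more libraries of either fraction left 209 miRNAs, all tested together with edgeR 4.0.16 (limma 3.58.1, R 4.3.3): quasi-likelihood test, TMM, cow as a block, Benjamini-Hochberg adjustment at 0.05, tested on simulated data. A standard error is the absolute log2 fold change over the square root of F. Pairing comes from the animals. Same-cow deviations correlated across miRNAs at 0.051, 0.056, 0.076 and 0.23, and those of different cows at -0.17 to 0.11. Within-library ratios were compared by exact two-sided permutation of the paired differences (scipy 1.17.1). Intervals cover counting error only.

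Alternatives were no block, RLE, library totals, DESeq2 1.42.0, the likelihood ratio test, other filters, bovine names only, near-identical names summed and each cow left out, with the 209 miRNAs kept. The named miRNAs are the 10 members, their cluster partners, red cell miRNAs and the 3 nearest profiles per family. Members and lists were chosen with earlier results of these data known. RT-qPCR was not analysed here.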

Additional observations from a re-analysis of the deposited data

Results flagged for a closer look

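Among 63 groups of 4 values, 9 held 1 cow whose gap to the nearest other cow exceeded Dixon's 95% critical share of the whole range, where chance gives about 1 group in 20. The groups share libraries and members and are not independent.

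Cow 47 was the distant one in 7 of the 9. In plasma, its RPMM stood low for miR-18a (gap 0.951 of the range), the miR-18 family (0.960) and the miR-17 family (0.987), and in blood cells for the miR-17 family (0.875). In plasma it also stood apart in the log2 ratios of miR-19b to miR-19a (0.886), of miR-106a to miR-17-5p (0.887) and of the miR-18 family to the miR-17 family (0.945). In blood cells, cow 45 stood apart in the log2 ratio of miR-20b to miR-20a (0.885) and cow 46 in that of the miR-19 family to the miR-17 family (0.843).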

How the results depend on the processing

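The 7 tested members and the 3 family sums kept their direction and their call under every alternative fitted to them, and 0 members were called higher in plasma under any. Summing near-identical names gave no separate value for miR-19b, the family sums or the count of members called. Under no filter with TMM the count of members called lower was 10, where 153 of the 704 names were called lower. Without the replicate block it was 7, as in the paired fit, where 80 of the 209 miRNAs were called lower without the block. Removing the block changed no call of a member or family. Family log2 fold changes ran from -3.33 to -3.19 (miR-17), -3.75 to -3.45 (miR-18) and -2.65 to -2.50 (miR-19) when 1 cow was left out. Their values nearest to 0 over the other alternatives came from library totals, at -1.55, -1.84 and -0.85. With no filter and library totals, added after the data were seen, miR-106a turned to 0.50 and miR-18b to 0.021, and miR-20b at -0.62 was no longer called. The log2 difference in miR-18a over miR-17-5p, 0.025 with all cows, ran from -0.093 to 0.14 when 1 cow was left out and turned negative without cow 45 or cow 47 (-0.054), and the other 13 ratios kept their direction. Leaving miR-486 and miR-451 out of the total gave the members 0.797% of plasma RPMM and 3.66% of blood cell RPMM. The ratios of miR-106a, miR-20b and miR-18b to their close relatives have no value with those names summed. In the ratios, miR-19a and miR-19b were kept apart. Few reads limit miR-106a, miR-18b and miR-20b.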

Other observations

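The 2 arms of the miR-17 hairpin were read in unequal and varying proportions. miR-17-3p took 17.2%, 21.4%, 12.3% and 22.5% of the reads of both arms in the plasma of cows 44 to 47, against 12.5%, 14.1%, 14.3% and 18.4% in their blood cells. Plasma was higher in cows 44, 45 and 47 and lower in cow 46, and the fractions overlapped. The 95% Wilson interval of cow 46 plasma (10.4% to 14.6%) did not overlap those of cow 45 (19.4% to 23.6%) and cow 47 (19.9% to 25.3%), so plasma shares differed between cows beyond counting error. This comparison was chosen after the values were seen.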
